A study of Mus musculus with 2 samples.

Results

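Adhesion G protein-coupled receptors (adhesion GPCRs) are a receptor family with long extracellular regions that bind matrix or neighbouring cells. This account covers 6 of them, Adgrg6, Adgrg3, Adgrg1, Adgrl2, Adgrl4 and Adgrf5, found by gene symbol among 31053 gene rows in each of 2 libraries of mouse intestinal endothelial cells. They are 6 of the 30 adhesion GPCR genes in the tables. The 6 were selected on their measured levels by endothelial class in these same libraries, so those levels are given as a description without a test.

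Endothelial cells came from the ileum (small intestine) of male mice, C57Bl/6 and wild type, that were 8 weeks old, with no treatment named. The sort took CD31+ cells that lacked EpCAM, an epithelial protein, and CD45, found on leukocytes. Podoplanin (PDPN) divided lymphatic endothelial cells, which carry it, from blood endothelial cells, which do not. The pair of droplet-based 3′ single-cell libraries makes up a single wild-type group (n = 2). Their labels do not say whether they came from separate mice or tie a cell to a gate.

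Most adhesion GPCRs cut themselves close to the membrane, leaving an outer fragment attached to the transmembrane part. A short stretch behind the cut acts as a tethered agonist, and the receptors then couple to G proteins, among them those that raise cAMP. Adgrg6 (GPR126) is best known from Schwann cells, where it raises cAMP and starts myelination, and it binds type IV collagen. Adgrg1 (GPR56) binds type III collagen and is known from development of the cerebral cortex. Adgrg3 (GPR97) is known from neutrophils and from the migration of lymphatic endothelial cells. Adgrl2 is a latrophilin, a receptor for teneurin and FLRT proteins. Adgrl4 (ELTD1) is a mainly endothelial receptor studied in vessel sprouting. Adgrf5 (GPR116) controls lung surfactant and is also expressed by endothelium.

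Cells were placed in 5 classes by raw counts of unique molecular identifiers (UMIs, 1 per captured RNA molecule). Lymphatic cells had at least 5 UMIs of Mmrn1, Lyve1 and Prox1 together, and blood cells at least 5 of Flt1, Cd34, Plvap and Esam. Among blood cells, at least 4 UMIs of Ackr1, Selp and Madcam1 made a cell venous, and at least 3 of Sema3g, Fbln5 and Stmn2 made it arterial. The rest were capillary cells, split into Plvap-high (Plvap above Gpihbp1 plus Aqp1) and Gpihbp1/Aqp1 cells (all others). Cells meeting both lymphatic and blood thresholds, or both venous and arterial ones, were in no class. Markers outside the rule followed these names. Pdpn, Flt4, Ccl21a and Reln summed to 11342 and 9853 CPM (UMIs per 1000000 UMIs of the summed class) in lymphatic cells of libraries 1 and 2, and to at most 138 CPM in a blood class. Nr2f2, Vwf and Vcam1 summed to 2381 and 2202 CPM in venous cells and to at most 498 CPM in other blood classes, with 1044 and 1030 CPM in lymphatic cells. Gja5, Gja4, Hey1 and Bmx summed to 920 and 843 CPM in arterial cells and to at most 336 CPM in other classes.

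Library 1 had a depth of 3806199 UMIs over 1026 barcodes, of which 972 were kept as cells. In library 2 the depth was 26645476 UMIs over 6302 barcodes, with 6061 cells kept. A total of 2 cell barcodes occurred in both libraries. Lymphatic cells numbered 76 and 976, venous 70 and 267, arterial 147 and 883, Plvap-high capillary 358 and 2361, and Gpihbp1/Aqp1 capillary 231 and 1082. Lymphatic cells of library 2 had the lowest median depth of any class, 2145 UMIs, and a median of 5.32% mitochondrial UMIs. Marker sums of pericytes and of fibroblasts were higher in every class of library 2 than of library 1, up to 391 and 460 CPM in Gpihbp1/Aqp1 capillary cells. Intervals below are exact 95% Poisson intervals that cover counting error only.

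A pair of the receptors lie side by side. Adgrg1 (ENSMUSG00000031785) occupies chr8:94974751-95014217 on the plus strand of GRCm38, and Adgrg3 (ENSMUSG00000060470) occupies chr8:95017692-95045250 on the same strand, starting 3475 bases after the end of Adgrg1. Adgrg6 (ENSMUSG00000039116) lies at chr10:14402583-14545659 on the minus strand. Adgrl2 (ENSMUSG00000028184, minus strand, chr3:148815583-148990555) and Adgrl4 (ENSMUSG00000039167, plus strand, chr3:151437887-151545086) share chromosome 3. Adgrf5 (ENSMUSG00000056492) lies at chr17:43360451-43459557 on the plus strand. Adgrg6 and Adgrl2 overlap counted genes on the opposite strand, Gm46212 and Gm43573. The sources used here do not state whether counting used strand, so counts of such pairs are uncertain.

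Promoter windows from RefSeq (GRCm38.p6), reaching from 250 bases before a gene start to 50 bases after it, were found for all 6 genes, 8 windows in all. Of these, 4 are printed: those of the neighbours Adgrg3 and Adgrg1, of the venous-restricted Adgrg6, and of Adgrl4, which stood furthest above the other classes among the receptors that led in capillary cells. Capitals mark matches, on either strand, to 5 short motifs searched: AGGAAG and CCGGAA, cores bound by ETS factors, AGGTCA, an element of nuclear receptors such as NR2F2, ACAAAG, a SOX core, and CCACCC, a KLF core. No matches overlapped each other.

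Adgrg3 (chr8:95017442-95017741, plus strand): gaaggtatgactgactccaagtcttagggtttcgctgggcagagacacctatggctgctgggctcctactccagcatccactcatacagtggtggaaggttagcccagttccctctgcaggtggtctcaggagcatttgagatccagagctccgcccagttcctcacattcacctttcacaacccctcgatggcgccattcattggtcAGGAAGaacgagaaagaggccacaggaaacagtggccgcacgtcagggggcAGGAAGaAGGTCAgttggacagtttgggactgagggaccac
Adgrg1 (chr8:94976859-94977158, plus strand): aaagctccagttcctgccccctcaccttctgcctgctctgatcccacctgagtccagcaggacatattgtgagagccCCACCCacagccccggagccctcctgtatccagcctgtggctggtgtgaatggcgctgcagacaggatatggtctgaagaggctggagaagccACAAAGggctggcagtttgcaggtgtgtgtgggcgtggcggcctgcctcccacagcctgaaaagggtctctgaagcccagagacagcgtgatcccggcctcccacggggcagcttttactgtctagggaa
Adgrg6 (chr10:14544987-14545286, minus strand): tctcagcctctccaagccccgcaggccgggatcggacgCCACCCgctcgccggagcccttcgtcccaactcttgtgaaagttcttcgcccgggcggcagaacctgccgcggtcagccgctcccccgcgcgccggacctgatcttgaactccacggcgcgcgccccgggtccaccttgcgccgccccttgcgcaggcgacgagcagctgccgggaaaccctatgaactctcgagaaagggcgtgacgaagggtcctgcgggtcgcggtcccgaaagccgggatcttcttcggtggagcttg
Adgrl4 (chr3:151437632-151437931, plus strand): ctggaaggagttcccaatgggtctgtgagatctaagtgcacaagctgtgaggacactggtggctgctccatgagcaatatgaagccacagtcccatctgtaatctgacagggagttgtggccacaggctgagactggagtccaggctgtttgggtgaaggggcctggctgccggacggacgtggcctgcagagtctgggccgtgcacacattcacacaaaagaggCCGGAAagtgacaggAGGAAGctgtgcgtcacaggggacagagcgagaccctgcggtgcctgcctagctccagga

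The windows of the neighbours held different letters. The Adgrg3 window had 2 AGGAAG matches and, close behind them, 1 AGGTCA match. The Adgrg1 window had 1 CCACCC and 1 ACAAAG match, and neither of its windows held AGGAAG or AGGTCA. The Adgrg6 window had a single CCACCC match and a GC content of 69.0%, and the Adgrl4 window had 1 CCGGAA and 1 AGGAAG match. All of these are common: among 32851 windows, 35.4% held AGGAAG, 31.5% CCACCC, 18.7% ACAAAG, 16.3% AGGTCA and 14.9% CCGGAA. A match is a run of letters and not a measured binding site.

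Adgrg6, the cAMP-coupled receptor, was a venous transcript in these vessels. Its level in venous cells was 912 CPM in library 1 (811 to 1022, 298 UMIs) and 556 CPM in library 2 (520 to 595, 870 UMIs), a mean of 734 ± 252 CPM (SD, n = 2). In the other 4 classes it stood between 0 and 5.10 CPM. Arterial cells of library 1 held 0 of 610939 UMIs. A limit of 3 counts is 4.91 CPM there, and the upper bound of the exact Poisson interval is 6.04 CPM. Venous cells were thus 407-fold and 181-fold above the mean of the other 4 classes in libraries 1 and 2. The other 4 classes overlapped one another, so no order could be read among them, while the venous values of both libraries lay far above them. The 2 venous values themselves differed by more than counting error.

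Other genes of the venous cells did not all differ between libraries in the same way. Hdc, the enzyme that makes histamine, stood at 683 and 446 CPM in venous cells of libraries 1 and 2, whereas Sele, which encodes the adhesion molecule E-selectin, stood at 689 and 737 CPM. These and Klk14, a kallikrein-related protease, had the profiles most like that of Adgrg6. Likeness was Pearson's r of log2(CPM + 10) across the 10 sums of 5 classes and 2 libraries, among 4545 genes of at least 50 CPM. The values were 0.996 for Klk14, 0.995 for Hdc and 0.995 for Sele. Points of 1 library share its depth, so this is a description of profiles only.

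To compare shares at 1 depth, cells were thinned to 1500 UMIs and shallower cells were left out. Left out in libraries 1 and 2 were 13 of 76 and 260 of 976 lymphatic cells, 3 of 70 and 3 of 267 venous, 10 of 147 and 9 of 883 arterial, 39 of 358 and 77 of 2361 Plvap-high, and 17 of 231 and 58 of 1082 Gpihbp1/Aqp1 cells. Thinned shares thus describe the deeper cells of each class. Of thinned venous cells, 70.1% and 54.2% had an Adgrg6 UMI (87.1% and 83.9% of all venous cells before thinning). In the other 4 classes the share was at most 0.488%. Stromal cells of library 2, which met neither the lymphatic nor the blood threshold, served as cells that should lack the endothelial transcripts. Of these, 29 could be thinned (median 6058 UMIs before thinning, 5397 in venous cells of that library), and none had an Adgrg6 UMI, against 3.12% of 32 before thinning. Markers of glia and Schwann cells, the known site of Adgrg6, summed to 3.06 and 4.48 CPM in venous cells, with Sox10 and Gfap at 0 in both libraries.

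**Figure D1:**
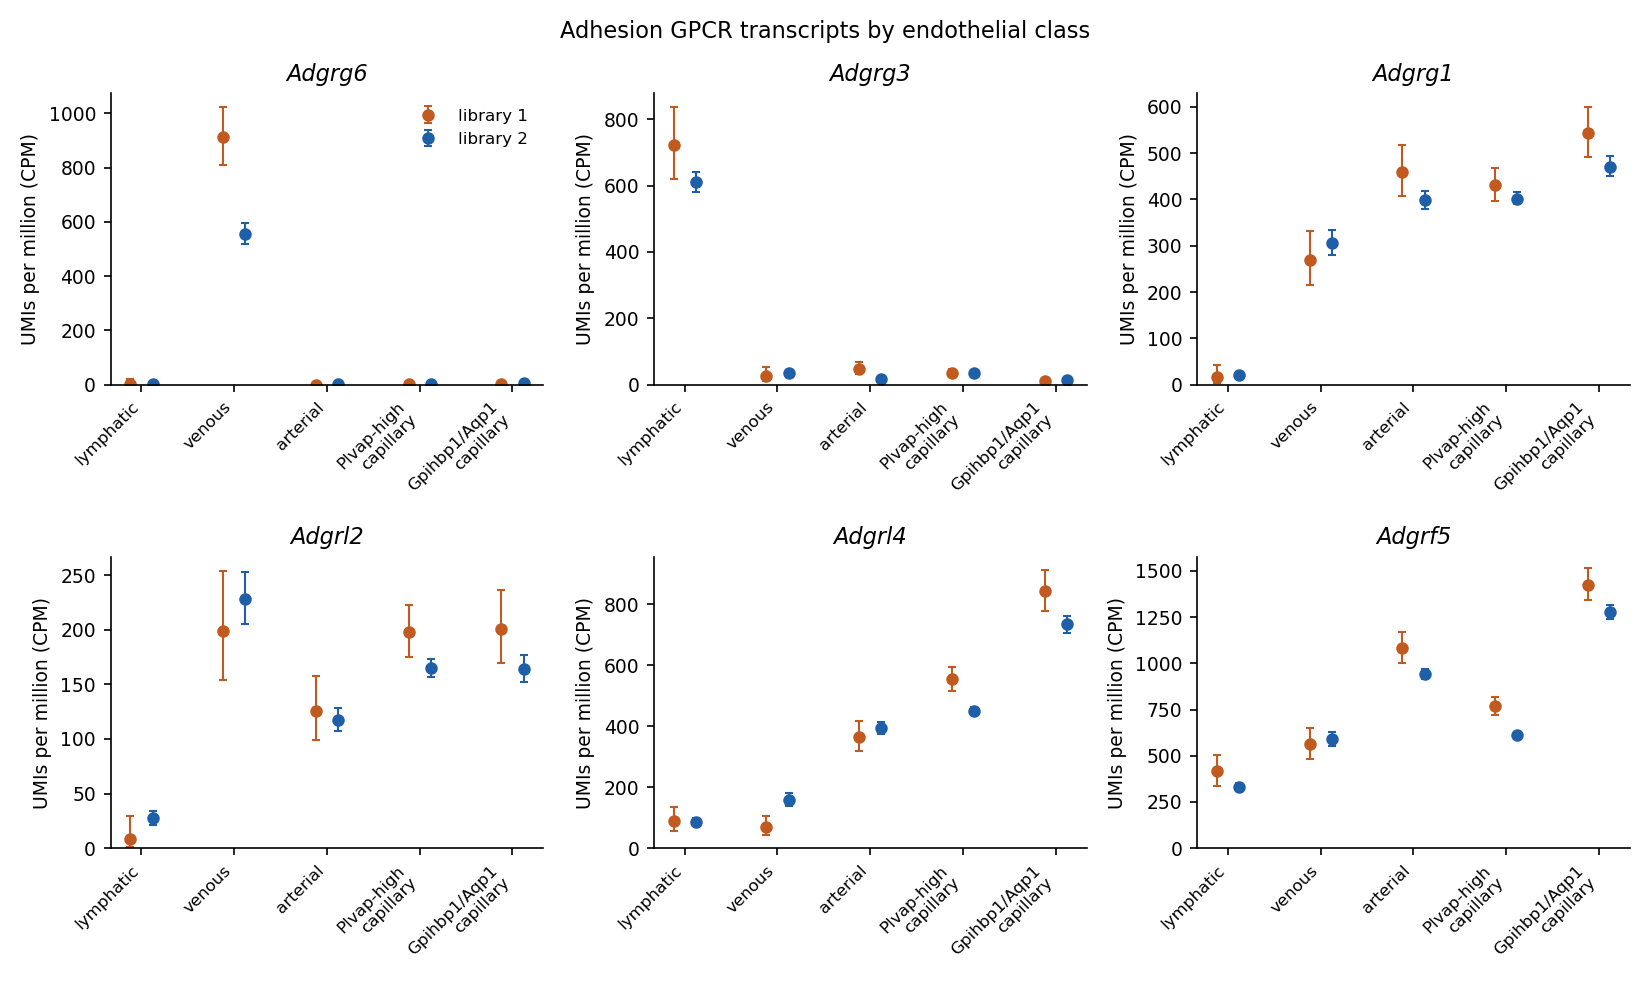
Levels of the 6 receptors in CPM (vertical axis) by endothelial class (horizontal axis) in library 1 (orange) and library 2 (blue), with bars for the exact 95% Poisson interval. Adgrg6 stands at 912 and 556 CPM in venous cells and at no more than 5.10 CPM elsewhere, and Adgrg3 at 722 and 610 CPM in lymphatic cells. Adgrg1, Adgrl4 and Adgrf5 are highest in Gpihbp1/Aqp1 capillary cells.

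Adgrg3 marked the lymphatic cells. Its level there was 722 CPM in library 1 (619 to 836) and 610 CPM in library 2 (580 to 641), a mean of 666 ± 79.1 CPM (SD, n = 2). Blood classes ranged from 10.8 to 47.5 CPM, and the lymphatic mean was 23.6-fold and 23.7-fold above theirs in libraries 1 and 2. No blood value came near the lymphatic ones. Within blood, Gpihbp1/Aqp1 capillary cells were lowest at 10.8 and 14.3 CPM, below every other class in each library. The Plvap-high, arterial and venous classes overlapped, since arterial cells stood at 47.5 CPM in library 1 and 17.4 CPM in library 2.

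At 1500 UMIs per cell, an Adgrg3 UMI was found in 58.7% and 58.5% of lymphatic cells (72.4% and 67.3% before thinning). Between 1.95% and 5.64% of cells in the blood classes had one. The share in thinned stromal cells was 3.45% and rests on 1 of 29 cells, so thinned shares alone do not tell blood classes apart from background. Before thinning, 3.12% of 32 stromal cells had an Adgrg3 UMI, against 4.53% to 13.9% of cells in blood classes of library 2. A difference from background was not tested. The level in lymphatic cells comes from the class with the lowest depth and, in library 2, the highest mitochondrial share (3.36% and 5.32% in lymphatic cells, 1.87% to 4.11% in blood classes), and their part in the result was not tested. Neutrophil genes were near 0: S100a9 and Retnlg had no UMI in any class, and the 5 neutrophil markers summed to at most 1.20 CPM in lymphatic cells. The closest profiles were those of Wscd1 (r = 0.983), Zfhx3, a zinc finger transcription factor (0.982), and Degs1, a ceramide-forming desaturase (0.981), with Degs1 at 644 and 646 CPM in lymphatic cells and 90.6 to 119 CPM in blood classes.

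Adgrg1, the neighbour of Adgrg3, was lowest where Adgrg3 was highest and highest where Adgrg3 was lowest. No reversal could be read among the blood classes between, which overlapped for Adgrg3. Adgrg1 was highest in Gpihbp1/Aqp1 capillary cells, at 543 CPM in library 1 (491 to 599) and 471 CPM in library 2 (450 to 493). Arterial cells followed at 460 and 399 CPM and Plvap-high cells at 431 and 402 CPM, and those classes overlapped. Venous cells were lower at 269 and 306 CPM. Lymphatic cells held 4 and 53 UMIs, or 16.3 and 21.2 CPM, so the Gpihbp1/Aqp1 level was 33.3-fold and 22.2-fold above the lymphatic one. Across the 10 sums the profiles of Adgrg1 and Adgrg3 had r = -0.97, given as a description.

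A thinned UMI of Adgrg1 was seen in 57.0% and 51.4% of Gpihbp1/Aqp1 cells (79.7% and 77.8% before thinning), 23.9% and 34.8% of venous cells and 1.59% and 3.07% of lymphatic cells. No stromal cell had one. Its nearest profiles were Zdhhc18, a protein palmitoyltransferase (r = 0.993), Ptprg, a receptor tyrosine phosphatase (0.993), and Plscr2, a phospholipid scramblase (0.991). Ptprg shared the steep lymphatic minimum, with 12.2 and 15.6 CPM in lymphatic cells against 447 and 416 CPM in arterial cells.

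The latrophilin Adgrl2 overlapped among 3 of the 4 blood classes. Venous cells had 199 CPM in library 1 (154 to 254) and 228 CPM in library 2 (205 to 253). Gpihbp1/Aqp1 cells had 201 and 164 CPM and Plvap-high cells 198 and 165 CPM, so the venous class, first by its mean of 213 ± 20.3 CPM, overlapped both capillary classes. With totals scaled by TMM factors they did not overlap, at 212 and 260 CPM in venous cells against 186 and 157 CPM in Gpihbp1/Aqp1 and 195 and 175 CPM in Plvap-high cells. Arterial cells were lower at 126 and 117 CPM, and lymphatic cells lowest at 8.16 and 27.2 CPM. Adgrl2 was also the receptor most visible outside endothelium: stromal cells of library 2 held 13 UMIs, or 66.9 CPM (35.6 to 114), and 10.3% of thinned stromal cells had a UMI. The lymphatic share at that depth was 0% and 3.91% (2.63% and 6.15% before thinning). Since stromal cells held the transcript, they give no background for Adgrl2. Cpne8, a copine (r = 0.984), Abcc4, an exporter of cyclic nucleotides (0.984), and Dlc1, a GTPase-activating protein (0.982), had the nearest profiles.

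Adgrl4 separated capillary cells from veins and lymphatics. Gpihbp1/Aqp1 cells had 843 CPM in library 1 (778 to 912) and 734 CPM in library 2 (707 to 761). Plvap-high cells had 555 and 449 CPM and arterial cells 365 and 394 CPM, each class below the previous one in both libraries. Venous cells had 70.4 and 159 CPM and lymphatic cells 89.7 and 85.9 CPM. These last classes overlapped, because the venous value was the lower one in library 1 and the higher one in library 2. The Gpihbp1/Aqp1 level was 12-fold and 4.63-fold above the venous level, a spread that comes from the venous cells, of which library 1 held 23 Adgrl4 UMIs.

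Thinned cells with an Adgrl4 UMI made up 68.7% and 60.8% of Gpihbp1/Aqp1 cells (84.8% and 82.3% before thinning), 11.9% and 18.2% of venous cells, and 14.3% and 11.6% of lymphatic cells. No thinned stromal cell had one. The nearest profiles belonged to Dab2ip, a Ras GTPase-activating protein (r = 0.989), Mcf2l, a guanine nucleotide exchange factor (0.989), and Rgcc, a cell-cycle regulator (0.988). Rgcc ran more steeply than Adgrl4, with 910 and 1091 CPM in Gpihbp1/Aqp1 cells against 0 and 54.4 CPM in venous cells.

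Adgrf5 was found in every class, lymphatic cells included. Its level in Gpihbp1/Aqp1 cells was 1426 CPM in library 1 (1341 to 1515) and 1277 CPM in library 2 (1242 to 1313). Arterial cells followed at 1084 and 941 CPM, Plvap-high cells at 769 and 615 CPM, venous cells at 563 and 591 CPM and lymphatic cells at 416 and 332 CPM. The values of neighbouring classes did not overlap in this order. The order of Plvap-high and venous cells in library 2 was within counting error, with intervals of 600 to 630 CPM and 553 to 630 CPM. It turned with TMM factors, at 652 CPM in Plvap-high and 676 CPM in venous cells. The Gpihbp1/Aqp1 level was 3.43-fold and 3.85-fold above the lymphatic one, the narrowest range between a highest and a lowest class among the 6 receptors. The stromal cells held 0 of 194297 UMIs, where 3 counts would be 15.4 CPM and the Poisson upper bound is 19.0 CPM.

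Adgrf5 UMIs were present in 88.3% and 82.2% of thinned Gpihbp1/Aqp1 cells and in 49.2% and 37.2% of lymphatic cells. Before thinning the shares were 97.4% and 95.3% of Gpihbp1/Aqp1 cells and 61.8% and 51.2% of lymphatic cells. Lpar6, a lysophosphatidic acid receptor (r = 0.968), Enah, an actin regulator (0.966), and Als2cl (0.965) were nearest, all with lower r than the leading genes of the other 5 receptors. Adgrf5 and Adgrl4 had the highest positive r of any pair with Adgrf5, 0.86, and Adgrg1 and Adgrl2 reached 0.93.

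**Figure D2:**
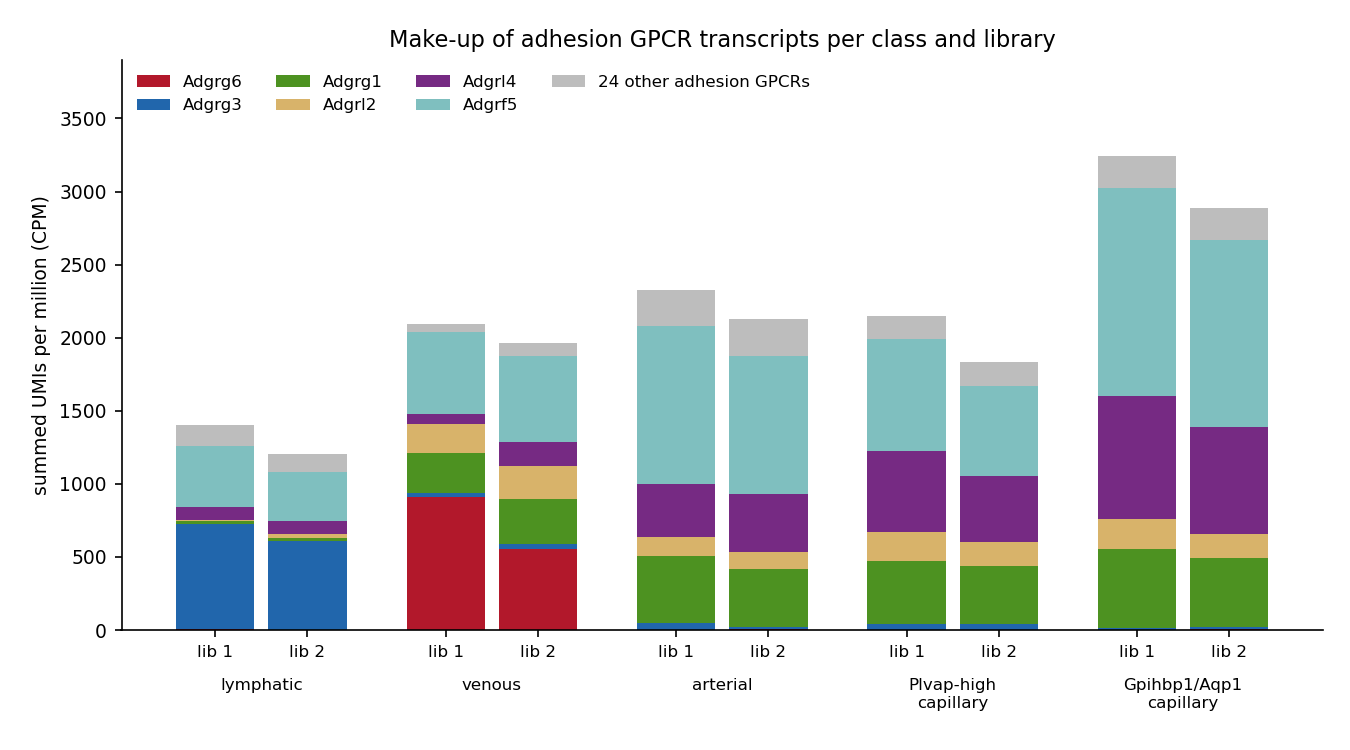
Summed level of all 30 adhesion GPCR genes (vertical axis, CPM) per class and library (horizontal axis), with each coloured segment showing 1 receptor and grey the other 24 genes. Adgrg3 fills the lower part of the lymphatic bars and Adgrg6 that of the venous bars, and Adgrf5 is present in all. Grey never exceeds the small top segment, since the 6 receptors hold 88.0% to 97.4% of the family's UMIs.

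Together the 6 receptors held 88.0% to 97.4% of all adhesion GPCR UMIs in the 5 classes, against 13.9% in the stromal cells of library 2. The 6 were selected on their levels in these classes, so this contrast is a description only. Each molecule is counted once at its 3′ end, so these shares do not grow with transcript length, although capture may differ between genes. The family summed to 3246 and 2890 CPM in Gpihbp1/Aqp1 cells and to 1399 and 1204 CPM in lymphatic cells. The leading receptor changed with the class. Adgrg3 made up 51.6% (95% Clopper-Pearson interval 46.2 to 57.0%) and 50.7% (48.9 to 52.5%) of the family's UMIs in lymphatic cells. In venous cells Adgrg6 made up 43.5% (39.8 to 47.3%) in library 1 and 28.3% (26.8 to 30.0%) in library 2, where Adgrf5 was level with it at 30.1% (28.5 to 31.8%). In Gpihbp1/Aqp1 cells Adgrf5 made up 43.9% and 44.2%, and Adgrl4 26.0% and 25.4%.

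Most blood endothelial cells carried more than 1 of the receptors. At 1500 UMIs, at least 2 of the 6 were seen in 85.5% and 77.2% of Gpihbp1/Aqp1 cells, 69.6% and 57.9% of Plvap-high cells, 67.2% and 60.4% of arterial cells and 61.2% and 63.3% of venous cells. In lymphatic cells the shares were 33.3% and 32.8%, and 11.1% and 22.1% had none. A share of this kind grows with the levels of the receptors, and it is not a count of cells that express several.

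Within a class, levels were compared between cells with and without a UMI of another receptor. In Gpihbp1/Aqp1 cells with a thinned Adgrl4 UMI, Adgrf5 stood at 1605 and 1429 CPM, against 1483 and 1259 CPM in those without. The intervals overlapped in library 1 (1443 to 1782 with, 1254 to 1741 without) and only just failed to in library 2 (1353 to 1507 with, 1170 to 1351 without). In venous cells the pair Adgrl2 and Adgrg6 was compared. Adgrg6 stood at 615 and 460 CPM in venous cells with an Adgrl2 UMI and at 1012 and 656 CPM in those without. Those intervals overlapped in both libraries (318 to 1075 with, 805 to 1257 without in library 1, 340 to 608 with, 566 to 757 without in library 2).

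Each class but Gpihbp1/Aqp1 capillary was also divided by genes outside the class rule, to see whether a receptor followed a state within its class. Adgrg6 stood at like levels in activated and other venous cells. Venous cells with more Sele and Icam1, adhesion molecules of activated endothelium, than Vwf and Cldn5 had 891 and 560 CPM, and the remaining venous cells 939 and 550 CPM. Adgrg3 stood at 33.0 and 49.1 CPM in the first of these and 20.7 and 13.2 CPM in the second. Adgrg1 stood at 319 and 331 CPM in the first and 207 and 267 CPM in the second. Intervals of Adgrg1 overlapped in both libraries (242 to 412 against 140 to 296, and 296 to 370 against 227 to 311). Those of Adgrg3 overlapped in library 1 (12.1 to 71.8 against 4.27 to 60.5) and not in library 2 (36.1 to 65.3 against 5.69 to 26.0). Lymphatic cells were split at 3 UMIs of the interferon-response genes Gbp2 and Gbp4. Adgrg3 was at 804 and 665 CPM in those with at least 3, against 689 and 582 CPM in the rest. The intervals overlapped (607 to 1044 against 572 to 824 in library 1, 611 to 722 against 546 to 620 in library 2). Cells with at least 3 were deeper, with medians of 4567.5 and 2729.5 UMIs against 2526 and 1944.5. The part of depth was not tested.

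Among Plvap-high capillary cells, Adgrg3 was uneven. Cells with at least 2 UMIs of Adamts4 and Bcr, and fewer than 2 of the tip-cell gene Esm1, had 50.9 and 46.9 CPM of Adgrg3. Cells with at least 2 Esm1 UMIs had 19.8 and 29.3 CPM, and cells with neither had 23.9 and 12.5 CPM. The first group was above both others in each library, at levels still far below the lymphatic ones. Its interval overlapped both others in library 1 (35.5 to 70.8 against 7.95 to 40.8 and 10.3 to 47.0 CPM). In library 2 it overlapped neither (41.4 to 53.0 against 23.6 to 35.9 and 7.73 to 19.1 CPM). Arterial cells with at least 3 UMIs of Fn1 and S100a4 had less Adgrl4, at 224 and 323 CPM against 408 and 423 CPM in the other arterial cells. They also had less Adgrl2, at 55.9 and 96.9 CPM against 148 and 125 CPM. Both receptors were lower in these arterial cells in each library, while Adgrf5, at 1111 and 993 CPM against 1075 and 921 CPM, was not. Adgrg1 was lower as well, at 412 and 353 CPM against 475 and 417 CPM, and so was Adgrg3, at 21.0 and 16.3 CPM against 55.6 and 17.9 CPM. Intervals overlapped for Adgrl2 in library 2 (80.7 to 116 against 113 to 138) and for Adgrg1 in library 1 (314 to 532 against 414 to 541). For Adgrg3 they overlapped in both libraries (4.32 to 61.2 against 36.3 to 81.4, and 10.1 to 24.9 against 13.6 to 23.2), so its difference was within counting error. The arterial cells with Fn1 and S100a4 were the deeper ones, with medians of 4876 and 5053 UMIs against 3436 and 4353, and the part of depth in these differences was not tested.

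**Figure D3:**
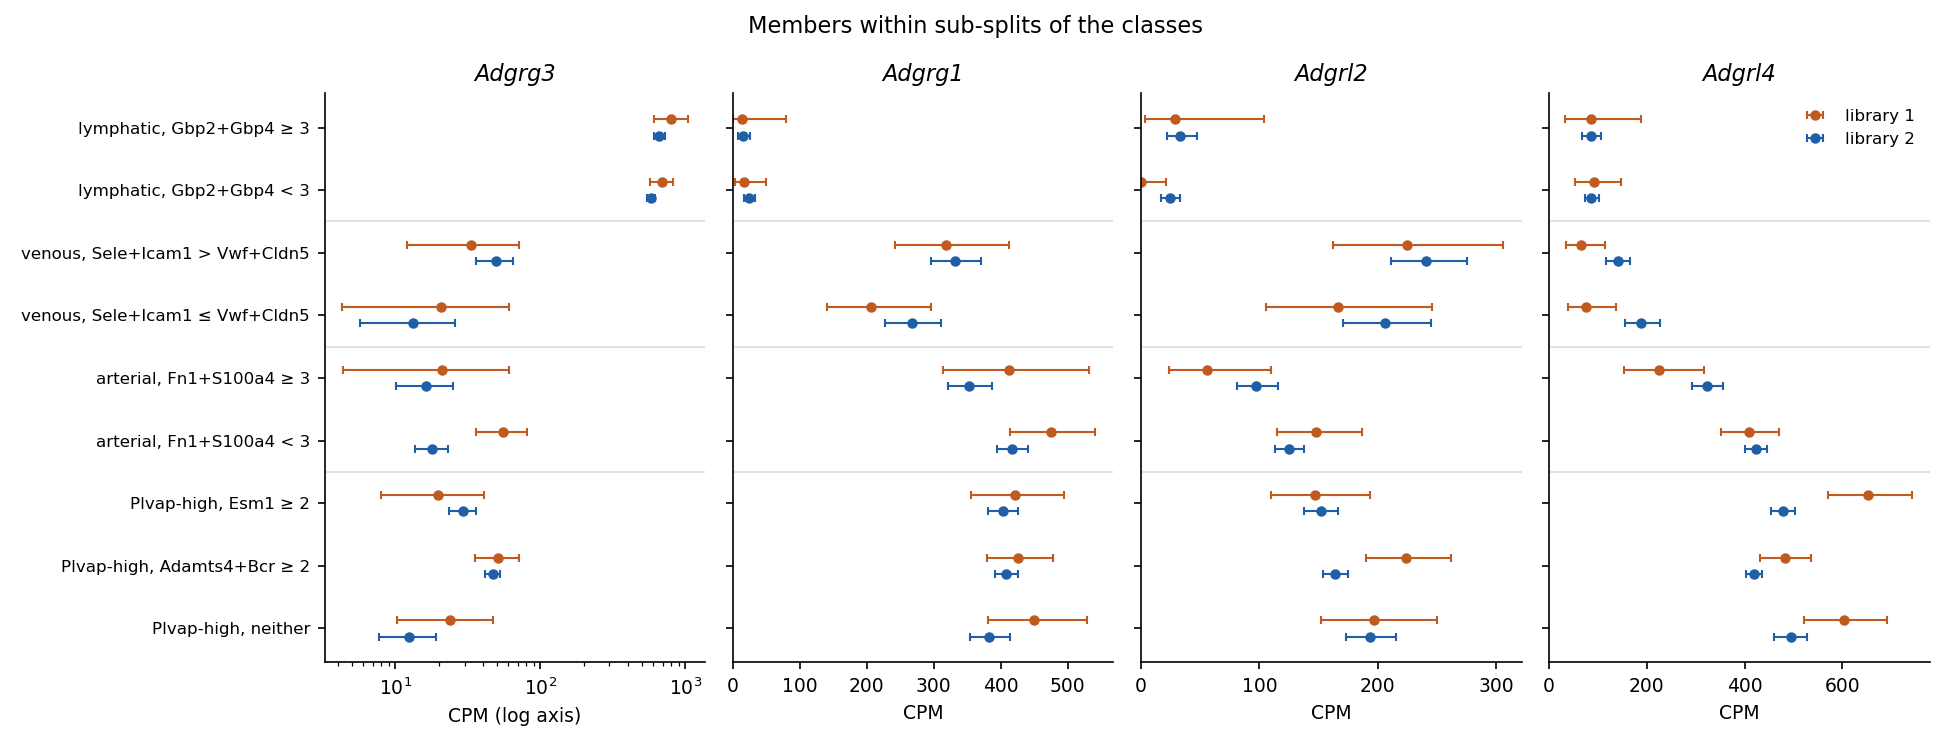
Levels of Adgrg3, Adgrg1, Adgrl2 and Adgrl4 (horizontal axes, CPM, a log axis for Adgrg3) in sub-splits of 4 classes (rows, thresholds in UMIs), with exact 95% Poisson intervals, library 1 in orange and library 2 in blue. In Plvap-high cells Adgrg3 stands at 50.9 and 46.9 CPM with Adamts4 and Bcr and at 12.5 to 29.3 CPM otherwise, and in arterial cells Adgrl4 is lower with Fn1 and S100a4.

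The rest of the family and its signalling partners were tested, since they were not used to choose the receptors. UMI sums of the 5 classes in each library were fitted together with edgeR's quasi-likelihood test and the library as a block, with Benjamini-Hochberg adjustment over 10541 genes, among which all 6 receptors passed the expression filter but are not reported. Log2 fold changes are fitted values ± SE. Of all genes tested, 51.3% passed an adjusted p of 0.05 between lymphatic and blood cells, 25.4% between venous and other blood cells, 12.1% between arterial and other blood cells, and 25.4% between Plvap-high and Gpihbp1/Aqp1 capillary cells. Counts below are to be read against those shares. The 4 comparisons share sums. With the library as a block, the spread behind these p-values is that of class differences between 2 libraries that may be technical. It had 4 residual degrees of freedom and was drawn mostly from other genes (a median of 51.6 prior degrees of freedom). Without scaling beyond the totals, the higher and lower calls moved to 1139 and 1853 between venous and other blood cells, against 1517 and 1160 with TMM scaling, as the median of all genes moved to -0.192. Between the capillary classes they moved to 1047 and 1853, against 1439 and 1243, with a median of -0.148.

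Of the 24 other adhesion GPCR genes, 6 had no UMI in any class and only 5 reached 5 CPM in some class of both libraries. Those 5 were also the ones tested: Adgra2, Adgra3, Adgre5, Adgrl1 and Celsr1. Adgre5 (CD97), a receptor of leukocytes and other cells that binds CD55, was the most abundant of them. It stood at 12.2 and 15.2 CPM in lymphatic cells and 9.18 and 19.8 CPM in venous cells, against 149 and 174 CPM in arterial, 90.8 and 97.0 CPM in Plvap-high and 153 and 160 CPM in Gpihbp1/Aqp1 cells. By edgeR it fell in lymphatic cells (log2 fold change -2.57 ± 0.22, adjusted p = 2.41e-15) and in venous cells (-2.77 ± 0.21, adjusted p = 1.14e-16). It rose in arterial against other blood cells (1.33 ± 0.13, adjusted p = 1.06e-12) and fell in Plvap-high against Gpihbp1/Aqp1 cells (-0.60 ± 0.13, adjusted p = 0.0002). These directions held in each library. The other blood cells of the arterial comparison include the low venous class. Arterial values overlapped those of Gpihbp1/Aqp1 cells, so Adgre5 was not higher in arterial cells than in that class. Of the 5, 3 were higher and 0 lower in arterial cells (median 0.94 against 0.004 over all genes), though DESeq2 called 1. The lower depth and higher mitochondrial share of lymphatic cells go with every lymphatic fold below, and their part was not tested.

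Adgra2 (GPR124), a co-receptor of Wnt signalling in brain vessels, rose in lymphatic cells by 2.0 ± 0.22 (adjusted p = 7.45e-11 by edgeR), with 44.9 and 53.2 CPM there. In arterial cells it stood at 44.2 CPM in library 1 and 15.6 CPM in library 2, and that call (0.94 ± 0.25, adjusted p = 0.00691) was lost with DESeq2, whose fold was 1.17 (adjusted p = 0.0504). Celsr1, a planar polarity cadherin, had 32.6 and 22.8 CPM in lymphatic cells and at most 3.20 CPM elsewhere (6.14 ± 0.54, adjusted p = 5.9e-15 by edgeR). Its blood sums are near 0, so that fitted fold depends on the prior count, as does its venous fold, 4.20 ± 1.20 (adjusted p = 0.00531), which rests on 3.20 CPM in library 2 and 0 in library 1. Adgrl1, a second latrophilin, fell in lymphatic cells (-1.21 ± 0.26, adjusted p = 7.93e-05 by edgeR). Its fold in arterial cells, 0.59, and between capillary classes, 0.54, passed by edgeR (adjusted p = 0.018 and 0.0452) but not by DESeq2 (adjusted p = 0.328 and 0.46). Adgra3 passed in no comparison and lay between 9.82 and 36.7 CPM in all classes.

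**Figure D4:**
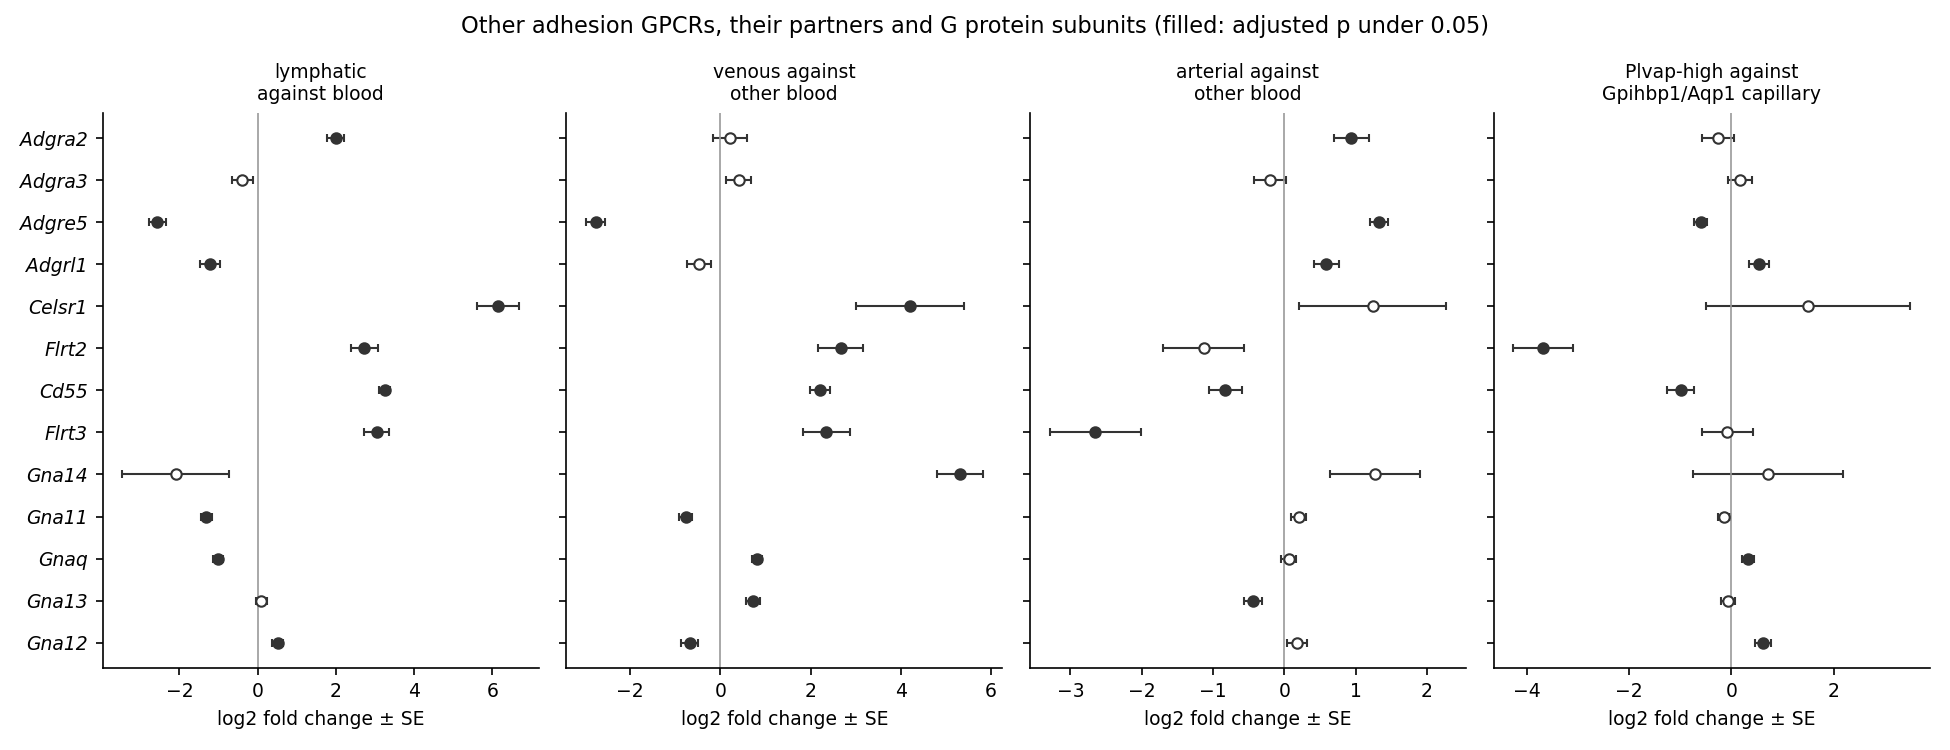
Fitted log2 fold changes ± SE (horizontal axes) of 5 other adhesion GPCRs, 3 of their partners and 5 G protein alpha subunits (rows) in 4 comparisons between classes, filled where the adjusted p of edgeR's quasi-likelihood test was under 0.05. Adgre5 lies at -2.57 and -2.77 in the lymphatic and venous comparisons, where its partner Cd55 lies at 3.25 and 2.21. Gna14 lies at 5.31 in the venous comparison.

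Known ligands and partners of the family, 22 genes of which 13 could be tested, differed strongly between lymphatic and blood cells. All 13 passed there, 8 higher and 5 lower, with a median log2 fold change of 1.41 against 0.01 over all genes. The higher ones were Thy1, Nrxn2, Cd55, Flrt3, Flrt2, Cd9, Reck and Tgm2, and the lower ones the collagen genes Col3a1, Col4a1 and Col4a2 with Cd81 and Prnp. Cd55, a complement regulator and ligand of Adgre5, had 179 CPM in lymphatic cells of both libraries, 42.9 and 53.1 CPM in venous cells and 4.91 to 23.0 CPM in other blood classes. It rose by 3.25 ± 0.14 in lymphatic cells (adjusted p = 1.11e-27 by edgeR) and by 2.21 ± 0.22 in venous cells (adjusted p = 2.84e-12). Thy1, another reported partner of Adgre5, had 767 and 801 CPM in lymphatic cells and at most 2.23 CPM in blood classes (9.37 ± 0.16, adjusted p = 1.41e-48 by edgeR). Its blood sums are near 0, so the size of that fold depends on the prior count.

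The latrophilin ligands Flrt2 and Flrt3 were found in lymphatic and venous cells at low levels. Nrxn2, a neurexin on the same list of partners, differed from them. It had 81.6 and 103 CPM in lymphatic cells, 0 CPM in venous cells of both libraries and at most 5.41 CPM in other blood classes. Flrt2 had 20.4 and 25.2 CPM in lymphatic cells and 18.4 and 10.9 CPM in venous cells. Gpihbp1/Aqp1 cells had 4.05 and 10.2 CPM of it, near the venous level in library 2, and the remaining classes at most 2.23 CPM. Flrt3 had 28.5 and 28.8 CPM in lymphatic cells and 18.4 and 8.31 CPM in venous cells. Flrt2 rose by 2.73 ± 0.35 in lymphatic cells (adjusted p = 1.56e-09 by edgeR) and by 2.67 ± 0.50 in venous cells (adjusted p = 1.99e-05), and Flrt3 by 3.04 ± 0.33 and 2.35 ± 0.52. Between venous and other blood cells 5 of the 13 partners were higher and 5 lower, with a median of -0.74 against -0.023 over all genes. Col4a2, named here for its role as a type IV collagen chain and not by the naming rule, fell in venous cells, the class of its receptor Adgrg6 (-1.53 ± 0.14, adjusted p = 1.15e-09 by edgeR), and in lymphatic cells (-1.83 ± 0.15, adjusted p = 3.31e-11). Between arterial and other blood cells 2 were higher and 2 lower, and between the capillary classes 1 was higher and 3 lower. Col3a1 is also a fibroblast marker, and fibroblast marker sums ranged from 3.06 to 107 CPM in venous cells and from 14.5 to 460 CPM in the other blood classes. Their part in the Col3a1 and Col4 differences was not tested.

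G protein alpha subunits, the first signalling step, were mixed. Of 13 genes 9 were tested, and 4 were higher and 3 lower in venous cells, with a median of 0.46 against -0.023. Gna14, a subunit of the Gq class, had 42.9 and 21.1 CPM in venous cells and at most 3.35 CPM in other classes, and rose by 5.31 ± 0.50 (adjusted p = 2.37e-13 by edgeR). The size of that fold depends on the prior count, because the capillary sums of Gna14 are near 0. Gnaq, its widely expressed relative, had 318 and 258 CPM in venous cells and 142 to 209 CPM in other blood classes (0.80 ± 0.11, adjusted p = 4.51e-08). Gna13 rose in venous cells by 0.72 ± 0.15 (adjusted p = 7.46e-05), while Gna12 fell by 0.68 ± 0.19 (adjusted p = 0.00399) and Gna11 by 0.77 ± 0.14 (adjusted p = 9.05e-06).

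Lymphatic cells had 1 alpha subunit higher and 3 lower. Gna12 stood at 110 and 96.7 CPM in lymphatic cells and at 24.5 to 91.7 CPM in blood classes (0.51 ± 0.14, adjusted p = 0.00206 by edgeR). Gna11 fell by 1.31 ± 0.14 (adjusted p = 1e-11) and Gnaq by 1.01 ± 0.13 (adjusted p = 1.22e-09). Gna13 was called lower in arterial cells, at -0.44 ± 0.13 (adjusted p = 0.0171), a call absent with DESeq2 (adjusted p = 0.198). Between the capillary classes 3 were called higher (Gna12, Gnaq and Gnas), and DESeq2 called 0 of the 9.

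On the cAMP branch, 11 of 18 genes were tested, and 2 were higher and 4 lower in lymphatic cells, with a median of -0.43 against 0.01 over all genes. Rapgef4 (EPAC2), a cAMP-gated exchange factor, had 0 and 1.20 CPM in lymphatic cells and 64.6 to 202 CPM in blood classes (-6.57 ± 0.35, adjusted p = 6.77e-24 by edgeR). Since its lymphatic sums are near 0, the size of that fold depends on the prior count. Rapgef3 (EPAC1), which tightens the endothelial barrier, had 0 and 15.6 CPM in lymphatic cells and 181 to 335 CPM in blood classes (-4.25 ± 0.20, adjusted p = 1.55e-26). Adcy4, an adenylate cyclase, had 36.7 and 52.8 CPM in lymphatic cells and 198 to 311 CPM in blood classes (-2.56 ± 0.15, adjusted p = 1.77e-22). In venous cells, the class of Adgrg6, 2 were higher and 2 lower. Creb1, the cAMP-response factor, had 174 and 123 CPM there (0.87 ± 0.14, adjusted p = 4.82e-07), and Adcy4 300 and 304 CPM (0.34 ± 0.11, adjusted p = 0.0137). The Adcy4 call was lost with DESeq2 (0.35, adjusted p = 0.0867), and arterial cells had 311 and 299 CPM. Between arterial and other blood cells 1 was higher and 0 were lower, and between the capillary classes 2 were higher and 1 lower.

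Receptor kinases, arrestins and RGS proteins, which end receptor signals, gave 5 higher and 6 lower of 15 tested in lymphatic cells (median -0.29) and 3 and 3 in venous cells (median -0.07). Arterial cells gave 4 higher and 1 lower, and Plvap-high against Gpihbp1/Aqp1 capillary cells 3 higher and 2 lower. Arrb1 (beta-arrestin) had 404 and 293 CPM in venous cells, 237 and 190 CPM in Plvap-high cells and 36.5 and 42.6 CPM in Gpihbp1/Aqp1 cells. It rose in venous against other blood cells (1.86 ± 0.12, adjusted p = 1.8e-20 by edgeR) and in Plvap-high against Gpihbp1/Aqp1 cells (2.42 ± 0.15, adjusted p = 3.05e-20). Rgs12 ran the other way, with 12.2 and 15.3 CPM in venous cells, 52.3 and 43.6 CPM in Plvap-high cells and 135 and 97.7 CPM in Gpihbp1/Aqp1 cells. It fell in the venous comparison (-1.99 ± 0.24, adjusted p = 1.26e-09) and in the capillary one (-1.09 ± 0.14, adjusted p = 1.02e-08). Rgs16 rose in venous cells, at 309 and 317 CPM (1.47 ± 0.12, adjusted p = 2.31e-14).

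Other GPCRs of endothelium and their RAMP partners, 28 genes with 24 tested, were more often lower than higher in lymphatic cells, 17 against 6, with a median of -0.72 against 0.01 over all genes. The atypical chemokine receptor Ackr2 was among the higher ones, at 89.7 and 102 CPM in lymphatic cells and at most 0.447 CPM in blood classes. The apelin receptor Aplnr was among the lower ones, at 0 and 1.20 CPM in lymphatic cells and 21.3 to 211 CPM in blood classes (-6.31 ± 0.38, adjusted p = 1.75e-21 by edgeR). With lymphatic sums near 0, the size of that fold depends on the prior count. In venous cells 7 were higher and 10 lower, among them the leukotriene receptor Cysltr1, at 309 and 267 CPM (2.13 ± 0.13, adjusted p = 5.13e-20). The prostaglandin receptor Ptger4 was the steepest in capillaries, at 2.18 and 2.59 CPM in Plvap-high cells against 137 and 90.3 CPM in Gpihbp1/Aqp1 cells (-5.13 ± 0.25, adjusted p = 5.62e-25). Arterial cells gave 7 higher and 6 lower, and the capillary comparison 9 of each.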

How the data were processed

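Droplet-based 3′ single-cell RNA was measured in 2 libraries. Per gene and barcode, the deposited tables hold raw UMI counts; bcl2fastq 2.2, Cell Ranger 3.1.0 and mm10 were used per the submitters' processing notes, and no annotation is named. The members and gene lists were chosen with earlier results of these data known.

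Barcodes needed 500 detected genes and no more than 15% mitochondrial UMIs (978 and 6067 passed). Scrublet in scanpy 1.11.5 (Python 3.11.15) called 6 doublets in each library, 0.613% and 0.0989% of cells, which were removed; at that share it is regarded as having failed in library 2. UMIs were summed per class and library, 10 sums of 245199 to 10406206 UMIs, and levels are CPM of these sums. Sums were tested with edgeR 4.0.16 (R 4.3.3), quasi-likelihood with robust fitting, TMM scaling, a minimum count of 10 in its expression filter and the library as a block, because each library supplies a sum to every class. The fit had 4 residual and a median of 51.6 prior degrees of freedom. Genes of the class rule and sort gates were left out of the test, but other genes vary in the same cells as those markers. SE was derived from the log2 fold change and the F statistic. The procedure was tested on simulated data. Alternatives were other scaling, no scaling, DESeq2 1.42.0, no filter, no block, equal cells per class, other cell, doublet and marker thresholds, thinning to 1500 UMIs, means over cells and, chosen after seeing the data, leaving out cells with over 1% haemoglobin UMIs.

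Named genes were the 6 receptors, other adhesion GPCRs of at least 5 CPM in some class of both libraries, and up to 5 passing genes per list of at least 20 CPM, by the size of their fold; 3 genes are named for likeness to each receptor. A planned comparison of the receptors' proteins was not made here. Positions are from GENCODE vM21. A gene list among the signalling partners is not reported here.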

Additional observations from a re-analysis of the deposited data

Results flagged for a closer look

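Cells that met both the venous and the arterial threshold, 28 in library 1 and 171 in library 2, belong to no class and enter no comparison. Their Adgrg6 level was 946 CPM in library 1 and 679 CPM in library 2, above every class in both libraries (venous cells had 912 and 556 CPM). They were picked out because this signal lies in cells outside the 5 classes. The 3 venous check markers Nr2f2, Vwf and Vcam1 summed to 2642 and 2476 CPM in them, and the 4 arterial ones Gja5, Gja4, Hey1 and Bmx to 23.4 and 43.0 CPM. Their median depth was 7900.5 and 7684 UMIs, against 4096.5 and 5397 UMIs in venous cells. Markers of B and plasma cells summed to 9.37 and 5114 CPM in them, against 0 and 33.3 CPM in venous cells, and their part in the Adgrg6 level was not tested. The Adgrg6 level of these cells in library 1 lay within the interval of venous cells (811 to 1022 CPM). The difference from venous cells was not tested.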

How the results depend on the processing

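Directions of the 6 receptors' folds held under every alternative run, and log2 folds of the leading class over the mean of the other 4 moved by more than the spread of the 2 libraries in 12 of 60 cases. The 60 include the value of each library alone, which could not count as moved, since it always lies within the SD of the 2. The leading class was picked as the highest in these same data, so a held direction is a description only. For Adgrg3 (4.57) TMM-scaled sizes gave 4.43, assigning lymphatic and venous cells first 4.44, stricter thresholds 4.49, a stricter cell filter 4.65, removal of the highest doublet scores 4.60, thinning 4.51 and means over cells 4.44. For Adgrg1 (0.81) TMM gave 0.67, and for Adgrf5 (1.03) TMM gave 0.91, stricter thresholds 0.98, thinning 1.13 and means over cells 1.07. Without either library the log2 folds ranged from 7.50 to 8.67 for Adgrg6, 4.56 to 4.57 for Adgrg3, 0.74 to 0.89 for Adgrg1, 0.58 to 0.94 for Adgrl2, 1.43 to 1.64 for Adgrl4 and 1.01 to 1.04 for Adgrf5.

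Of the counts of passing genes, equal cells per class gave 2887 (5405) between lymphatic and blood, 1769 (2677) venous, 718 (1278) arterial and 1719 (2682) between capillary classes, main counts in parentheses. DESeq2 gave 585 arterial and 1351 capillary genes. The pairing of classes by library follows from their shared sample; with no replicate block, 611 arterial and 1428 capillary genes passed. Without the block or with DESeq2, the arterial counts of other adhesion GPCRs fell to 1 and 1 (3), of ligands to 1 and 2 (4) and of arrestins, kinases and RGS genes to 3 and 3 (5); other endothelial GPCRs fell to 7 and 9 (13). Celsr1 in venous cells gives no value without replicate 2. Leaving out a library leaves no residual degrees of freedom, so no such count was made. Of 1102 checks of named genes, 1023 kept direction and call, 76 lost the call and 3 turned: Adgrl1 between capillary classes with equal cells (-0.24, adjusted p = 0.659 by edgeR), and without replicate 2 Rhoc in lymphatic cells (0.05, against -0.33 without replicate 1) and P2ry2 in arterial cells (-0.00415, against 1.26 without replicate 1). The calls for Gnaq and Adgrl1 between capillary classes and for Arhgef11 in lymphatic cells were lost most often. With no scaling, 38.1% of venous and 36.1% of capillary calls were higher, against 56.7% and 53.7%. The causes were not tested. Depth limits low values: 3 UMIs equal 12.2 CPM in lymphatic cells of library 1.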

Other observations

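Cells that fell outside every class held the receptors in other mixtures. In library 2, 93 cells met both the lymphatic and the blood threshold, with a median of 4624 UMIs. They had 216 CPM of Adgrg3, 168 CPM of Adgrg1, 40.5 CPM of Adgrg6 and 176 CPM of Adgrl4. Lymphatic check markers summed to 3129 CPM and blood check markers to 2192 CPM in them. Markers of B and plasma cells summed to 1431 CPM in them, and 15 of the cells were left once the highest doublet scores were removed. The part of either in these levels was not tested. Library 1 had 2 such cells.

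Cells that met neither threshold numbered 60 in library 1 and 228 in library 2. Adgrg6 stood at 124 CPM (71.1 to 202) and 17.4 CPM (10.9 to 26.3) in these, and glial and Schwann cell markers summed to 109 and 74.9 CPM. These cells were mixed, and the libraries differed in make-up. In libraries 1 and 2, endothelial markers summed to 2814 and 723 CPM, venous check markers to 614 and 178 CPM, and pericyte and smooth muscle markers to 3125 and 1717 CPM. B and plasma cell markers summed to 365 and 59633 CPM, epithelial ones to 7.77 and 11177 CPM, red cell ones to 0 and 8209 CPM and fibroblast ones to 46.6 and 2497 CPM. Their part in the Adgrg6 levels was not tested. The 6 receptors made up 82.7% and 60.1% of adhesion GPCR UMIs in these cells, and 13.9% in the 32 stromal cells.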
